A study of Danio rerio with 6 samples.

Results

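Parvalbumins and calretinin are small calcium-binding proteins, and 8 of their genes among the 31452 genes of the count files are described here. They were taken by gene symbol. The neuronal genes are pvalb6, pvalb7, calb2a and calb2b, and the muscle parvalbumins pvalb1, pvalb2, pvalb3 and pvalb4 stand beside them as a contrast. All 8 passed the filter on low counts, which left 17557 tested genes.

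The libraries came from whole zebrafish embryos at 3 days post fertilisation, with 15 embryos in each pool and 3 pools per genotype. The embryos of the EWSR1-ERG group came from a cross of Tg(14xUAS:GFP-EWSR1-ERG), which carries a GFP-tagged fusion gene behind Gal4 binding sites, with fish carrying the pan-neuronal Gal4 driver Et(E1b:Gal4-VP16)s1101t and the fluorescent reporter Tg(UAS:Kaede) s1999t, and they made the fusion protein in neurons. EWSR1-ERG joins an RNA-binding protein gene to an ETS transcription factor gene and occurs in Ewing sarcoma. The control group were siblings labelled wild type, and the labels do not say if these had the Gal4 driver or the reporter. The fusion gene is not among the listed genes, so its own expression was not checked. The comparison asks which genes differ between embryos whose neurons make the fusion and these siblings. If the siblings lacked the driver or reporter, effects of these and of the fusion cannot be told apart here.

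Parvalbumins bind calcium through paired EF-hand loops and act as slow buffers, which speeds the relaxation of fast muscle fibres and shortens calcium signals in fast-firing neurons. Fish carry several parvalbumin genes, some with very high expression in trunk muscle. In zebrafish, pvalb7 protein is a marker of cerebellar Purkinje cells. Calretinin, which the paralogs calb2a and calb2b encode, is a buffer of many interneurons and of ganglion and amacrine cells of the retina. RNA from whole embryos does not show in which cells these transcripts lay. The words neuronal and muscle are thus labels given to the genes and were not tested here. Fewer cells of a type and less RNA per cell cannot be told apart in these pools.

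Library totals ran from 4771843 to 13338802 counts, with EWSR1-ERG replicate 3 the deepest and the only library whose deposited file is named for another sequencing lane. Mitochondrially encoded genes took 3.87% to 4.35% of each wild-type library and 2.64% to 2.99% of each EWSR1-ERG library. With these and the 50 most abundant genes left out of the scaling, 1307 genes passed as higher and 1735 as lower. With all genes in the scaling these counts were 1309 and 1732. Beyond the scaling, the part of mitochondrial genes in the results was not tested. Transcript lengths of the build were not used here, so levels are compared between pools of the same gene and not between genes. Levels are given as CPM, which is counts relative to library totals scaled by trimmed mean of M values factors. Nothing in the labels says that the pools came from separate clutches. The p-values of single genes thus set the difference between the groups against the spread between these pools. That spread is estimated for each gene with the help of the other tested genes.

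All 4 neuronal genes were lower in the EWSR1-ERG pools, at 35.8% to 54.5% of their wild-type mean. Of the 4 muscle parvalbumins, pvalb4 fell and pvalb1, pvalb2 and pvalb3 did not pass the test. Among all tested genes, the quasi-likelihood test of edgeR, with Benjamini-Hochberg adjusted p under 0.05, called 17.3%, of which 9.87% of the tested genes were lower and 7.46% higher. The groups did not overlap in any of the 4 neuronal genes, a state that held for 35.1% of all tested genes, and in the lower direction for 18.0%.

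The calretinin gene calb2b (ENSDARG00000036344, chromosome 7 of Zv9) had the largest fall of the 4. It stood at 131, 135 and 107 CPM in wild-type replicates 1, 2 and 3 and at 33.2, 46.6 and 53.9 CPM in the EWSR1-ERG pools. The lowest wild-type pool lay well above the highest EWSR1-ERG pool. The wild-type mean was 124 ± 15.3 CPM and the EWSR1-ERG mean 44.6 ± 10.5 CPM (SD, n = 3 per group). This was a log2 fold change of -1.47 (SE 0.161, adjusted p = 4.96e-05), or 2.77-fold lower.

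Its paralog calb2a (ENSDARG00000041062, chromosome 18) stood at 110, 120 and 98.9 CPM in the wild-type pools and at 29.7, 69.1 and 58.2 CPM in the EWSR1-ERG pools. No pool of one group reached the other group, but EWSR1-ERG replicate 1 lay far below the rest of its group, whose highest pool was 2.33-fold above its lowest. The means were 110 ± 10.3 and 52.3 ± 20.4 CPM (SD, n = 3 per group), with a log2 fold change of -1.07 (SE 0.255, adjusted p = 0.0224). The call ended without wild-type replicate 1 (adjusted p = 0.0798), without wild-type replicate 2 (adjusted p = 0.0567) and without wild-type replicate 3 (adjusted p = 0.0699), at log2 fold changes near that with all pools. With no filter on low counts it ended too (-1.06, adjusted p = 0.138). The adjusted p was 2.93e-05 with DESeq2 and 0.00474 with limma-voom.

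The parvalbumin gene pvalb7 (ENSDARG00000034705, chromosome 22) stood at 99.4, 110 and 133 CPM in wild-type replicates 1, 2 and 3. It stood at 38.6, 49.3 and 51.9 CPM in the EWSR1-ERG pools. Every EWSR1-ERG pool held less than any wild-type pool. The means of 114 ± 17.3 and 46.6 ± 7.07 CPM (SD, n = 3 per group) gave a log2 fold change of -1.28 (SE 0.138, adjusted p = 2.21e-05).

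The parvalbumin gene pvalb6 (ENSDARG00000009311, chromosome 3) had the smallest fall of the 4. Its counts, not scaled for the unequal library totals, were 812 in all wild-type pools and 714 in all EWSR1-ERG pools. It stood at 54.9, 55.9 and 45.0 CPM in the wild-type pools and at 20.4, 35.4 and 29.1 CPM in the EWSR1-ERG pools. The gap between the groups was narrower than for calb2b, and EWSR1-ERG replicate 1 was again the lowest. The means of 51.9 ± 6.05 and 28.3 ± 7.52 CPM (SD, n = 3 per group) gave a log2 fold change of -0.88 (SE 0.170, adjusted p = 0.00337).

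**Figure D1:**
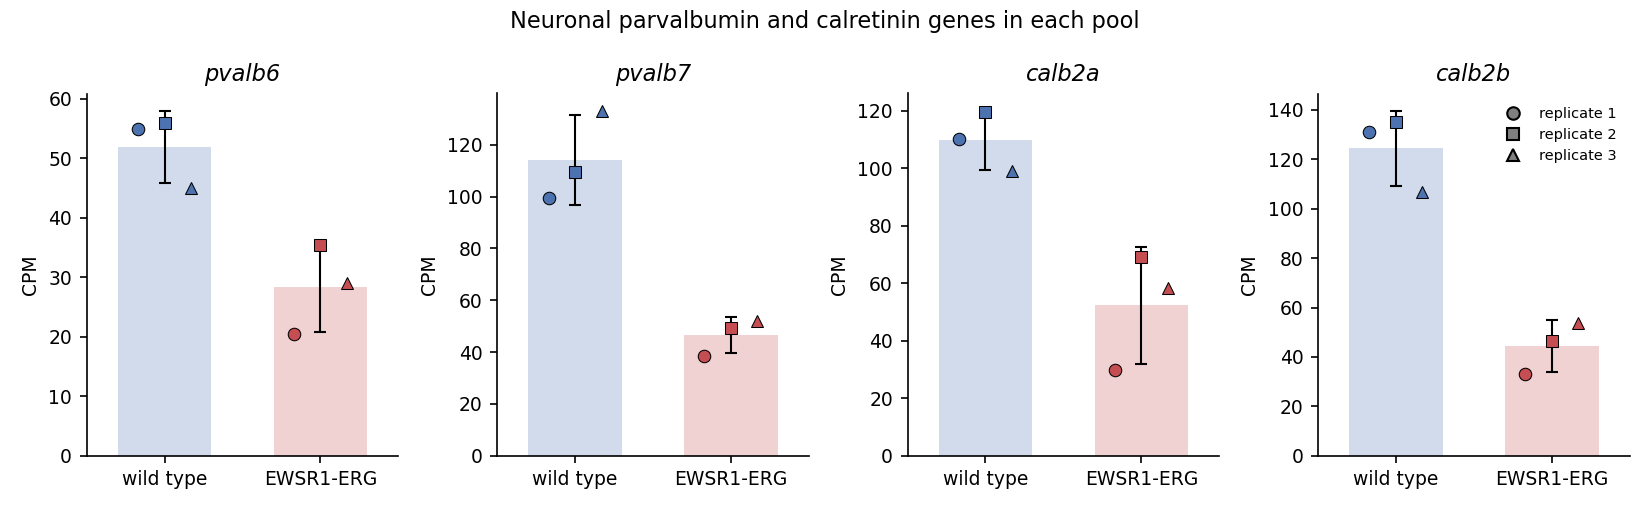
Level of pvalb6, pvalb7, calb2a and calb2b in CPM (vertical axis, linear from 0) in wild-type and EWSR1-ERG pools; bars are means, error bars are SD over n = 3 pools and each symbol is a pool. No EWSR1-ERG pool reached the lowest wild-type pool in any of the 4 genes, the nearest being pvalb6 with 35.4 against 45.0 CPM.

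Whether paralogs changed by unequal amounts was tested on their ratio within each library, where scaling between libraries cancels. The log2 ratio of calb2b over calb2a was 0.25, 0.18 and 0.11 in the wild-type pools and 0.16, -0.57 and -0.11 in the EWSR1-ERG pools. The groups overlapped, and the mean difference of -0.35 had a two-sided exact permutation p of 0.2, where 3 pools against 3 allow no p below 0.1. For pvalb7 over pvalb6 the mean log2 ratio was 1.13 ± 0.379 in wild type and 0.74 ± 0.230 in EWSR1-ERG (SD, n = 3 per group, exact permutation p = 0.2). Both differences became larger or smaller in size when 1 pool was left out. For calb2b over calb2a the difference ran from -0.52 without EWSR1-ERG replicate 1 to -0.15 without EWSR1-ERG replicate 2. For pvalb7 over pvalb6 it ran from -0.52 without wild-type replicate 1 to -0.17 without wild-type replicate 3. It was -0.26 without EWSR1-ERG replicate 2. With 3 pools per group no p could fall under 0.05, so these tests cannot decide whether paralogs fell by unequal amounts. Over all 19 ratios computed, no Benjamini-Hochberg adjusted p was below 0.173, and the floor of 0.1 left none able to pass.

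The muscle parvalbumins included genes of very high counts. Together pvalb1, pvalb2, pvalb3 and pvalb4 took 1.88% to 2.34% of each wild-type and 1.54% to 2.07% of each EWSR1-ERG library. The gene pvalb1 (ENSDARG00000037789, chromosome 3) stood at 9145, 10234 and 12863 CPM in the wild-type pools and at 7889, 9518 and 10898 CPM in the EWSR1-ERG pools. Its groups overlapped, and the log2 fold change was -0.19 (SE 0.167, adjusted p = 0.504), with a 95% interval from -0.55 to 0.17. The wild-type pools held 8218, 9585 and 11420 CPM of pvalb2 (ENSDARG00000002768, chromosome 12), and the EWSR1-ERG pools 6960, 8611 and 9695 CPM. The groups overlapped here too, at a log2 fold change of -0.21 (SE 0.166, adjusted p = 0.442) and an interval from -0.56 to 0.15. For both genes the interval leaves out falls as large as the estimates for calb2b, pvalb7, calb2a and pvalb6. Those estimates have intervals of their own. The intervals of pvalb6 (-1.25 to -0.51) and calb2a (-1.65 to -0.48) overlap those of pvalb1 and pvalb2. The intervals of pvalb7 (-1.58 to -0.99) and calb2b (-1.82 to -1.12) do not.

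Reads from the lesser muscle genes were fewer. The gene pvalb3 (ENSDARG00000022817, chromosome 12) had between 86 and 237 counts per library. It stood at 16.6, 21.1 and 25.3 CPM in the wild-type pools and at 13.9, 15.1 and 18.2 CPM in the EWSR1-ERG pools, with overlap (log2 fold change -0.39, SE 0.173, adjusted p = 0.150). The gene pvalb4 (ENSDARG00000024433, chromosome 3) was the muscle parvalbumin that passed. It stood at 664, 703 and 950 CPM in the wild-type pools and at 401, 538 and 630 CPM in the EWSR1-ERG pools. The highest EWSR1-ERG pool lay just under the lowest wild-type pool, and the log2 fold change was -0.56 (SE 0.175, adjusted p = 0.0454). The pvalb4 call ended without wild-type replicate 1 (-0.66), wild-type replicate 2 (-0.63), wild-type replicate 3 (-0.38), EWSR1-ERG replicate 1 (-0.40) or EWSR1-ERG replicate 2 (-0.58), with adjusted p between 0.0559 and 0.140.

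Ratios within a library were also taken for pvalb4. The log2 ratio of pvalb4 over pvalb1 was -3.78, -3.86 and -3.76 in the wild-type pools and -4.30, -4.14 and -4.11 in the EWSR1-ERG pools, with SDs of 0.0547 and 0.0984. No value of one group reached the other, with a mean difference of -0.38 and the smallest exact permutation p that 3 pools against 3 allow, 0.1. For pvalb2 over pvalb1 the mean difference was -0.02 (exact permutation p = 0.6, n = 3 per group). These ratios were chosen after the values were seen.

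The 3 parvalbumin genes outside these sets all fell. The gene pvalb5 (ENSDARG00000032836, chromosome 3) showed the largest change of the family. It stood at 46.0, 59.2 and 79.5 CPM in the wild-type pools and at 5.51, 4.20 and 4.30 CPM in the EWSR1-ERG pools. The wild-type pools held 930 counts of it in all and the EWSR1-ERG pools 116, not scaled for the unequal library totals. Its log2 fold change of -3.72 (SE 0.216, adjusted p = 1.98e-07) was 13.2-fold lower, and 0.074% of all tested genes had a more negative value.

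The other parvalbumin genes, pvalb8 and pvalb9, are listed in RefSeq with the synonyms ocma and ocmb, after oncomodulin, a parvalbumin known from sensory hair cells in mammals. The gene pvalb8 (ENSDARG00000037790, chromosome 3) stood at 141, 173 and 221 CPM in the wild-type pools and at 67.5, 96.8 and 92.6 CPM in the EWSR1-ERG pools, which is 2.08-fold lower (-1.06, SE 0.172, adjusted p = 0.00138). The gene pvalb9 (ENSDARG00000071601, chromosome 12) stood at 95.3, 108 and 124 CPM in the wild-type pools and at 61.9, 50.6 and 65.3 CPM in the EWSR1-ERG pools, which is 1.83-fold lower (-0.87, SE 0.127, adjusted p = 0.000295). The groups did not overlap in either gene. Across the family, 6 of 9 parvalbumin genes fell (66.7%, against 9.87% of all tested genes) and none rose. The median log2 fold change was -0.87 against 0.00 over all tested genes.

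Part of the family is clustered in the genome, but pvalb6 and pvalb7 have no parvalbumin gene next to them. In the RefSeq annotation of GRCz12tu, pvalb8 lies next to pvalb4 and pvalb1 next to pvalb5 on chromosome 3, and pvalb9 next to pvalb3 on chromosome 12. Neighbours thus differed in how far they moved, with pvalb1 at -0.19 beside pvalb5 at -3.72 on the log2 fold change scale. The log2 ratio of pvalb5 over pvalb1 was lower by 3.43 in EWSR1-ERG pools, with no overlap (exact permutation p = 0.1, n = 3 per group, chosen after the values were seen). How the counting treated reads that match more than 1 of these similar genes was not stated in the labels, nor was a strand setting, so counts of close relatives may be shared in part.

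**Figure D2:**
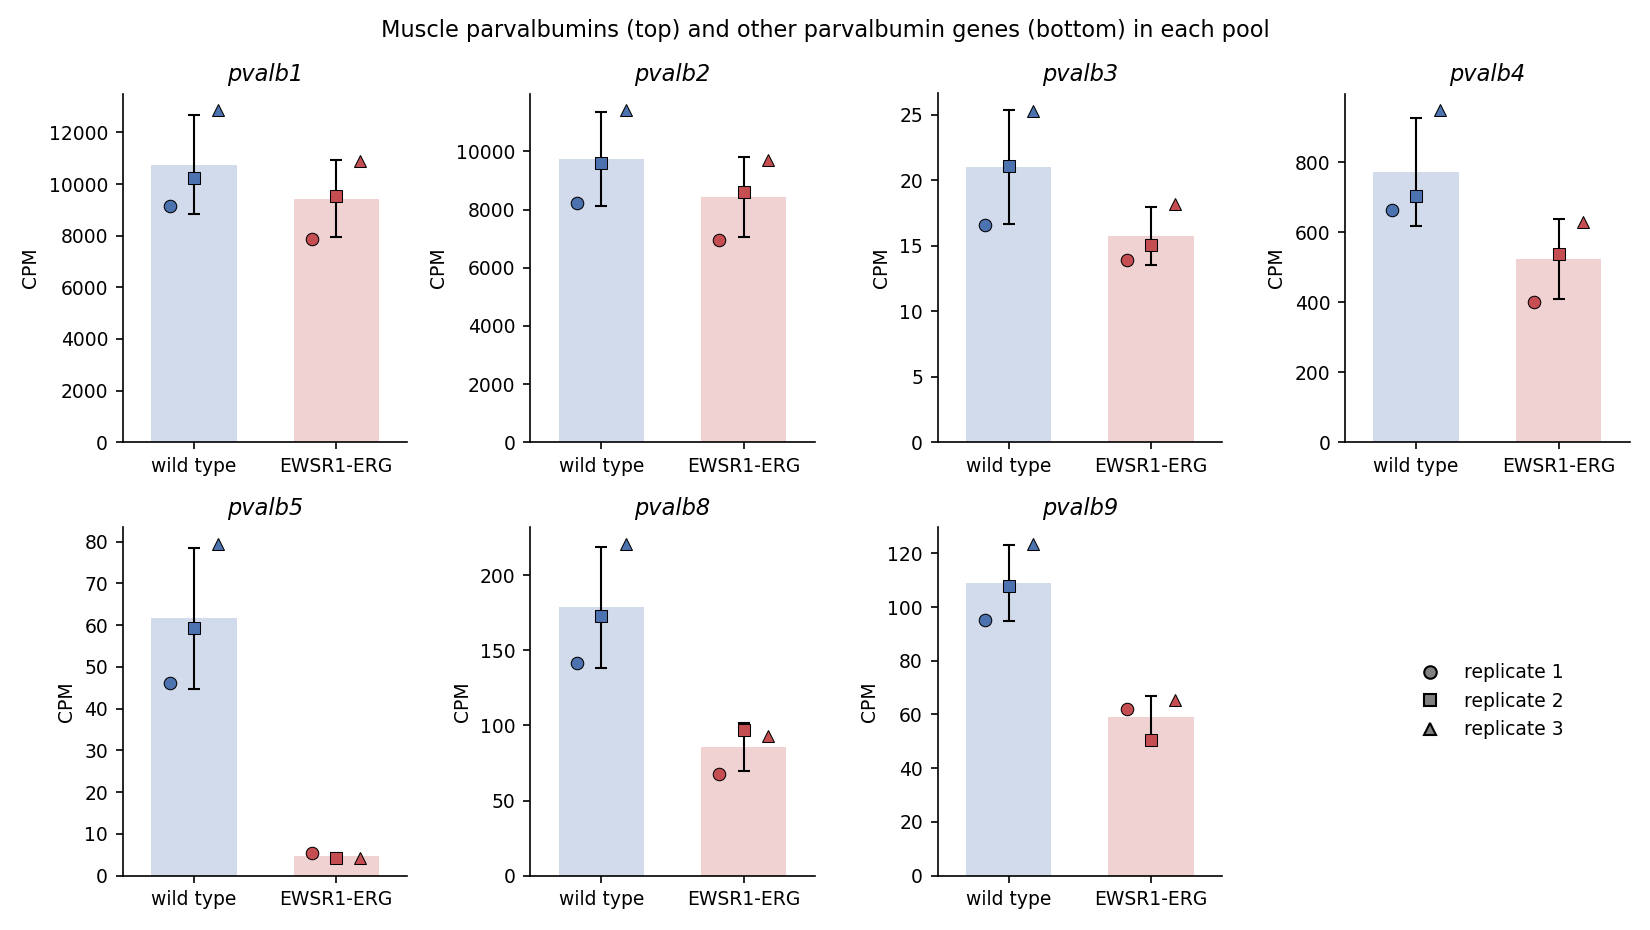
Level of the muscle parvalbumins pvalb1, pvalb2, pvalb3 and pvalb4 (top) and of pvalb5, pvalb8 and pvalb9 (bottom) in CPM, each panel on its own linear axis from 0; bars are means, error bars are SD over n = 3 pools and symbols are pools. The groups overlap in pvalb1, pvalb2 and pvalb3 and lie apart in the other 4, where pvalb5 in EWSR1-ERG pools lies at 4.20 to 5.51 CPM.

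**Figure D3:**
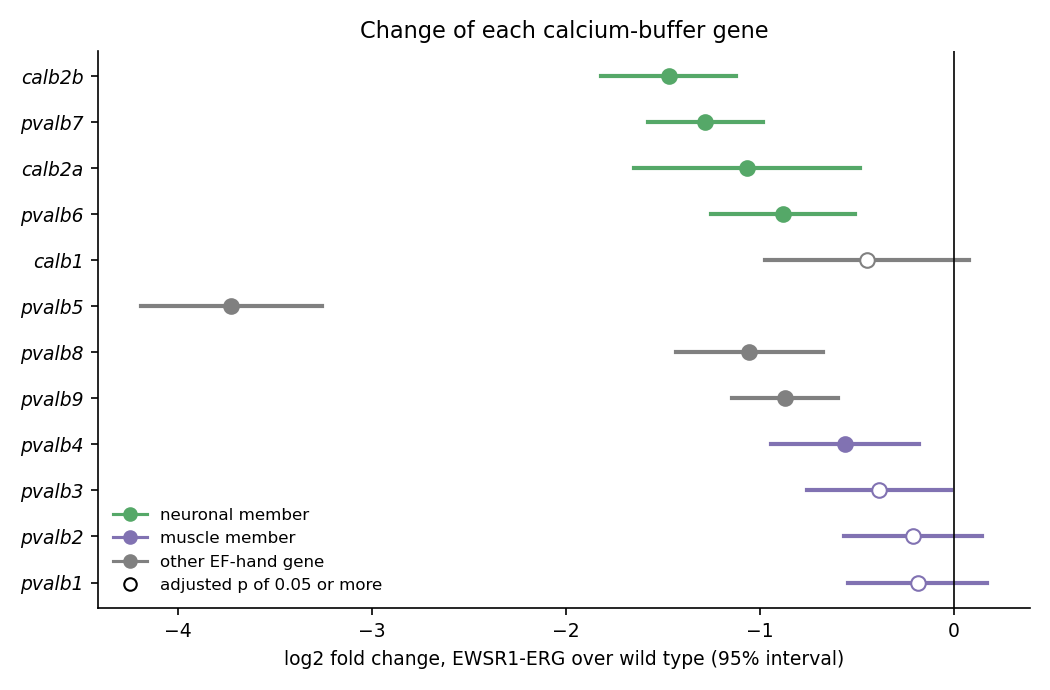
Log2 fold change of EWSR1-ERG over wild type (horizontal axis) with its 95% interval for the neuronal genes, the muscle parvalbumins, the remaining parvalbumins and calb1; filled symbols passed at an adjusted p under 0.05. The neuronal genes lie between -1.47 and -0.88, pvalb5 lies at -3.72, and pvalb1, pvalb2, pvalb3 and calb1 did not pass.

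Within the groups, the genes did not vary in step across pools. Wild-type replicate 3 held the highest level of its group for 8 of the 11 parvalbumin and calretinin genes, among them pvalb7 and all 4 muscle parvalbumins. The same pool held the lowest level for the remaining 3, which were pvalb6, calb2a and calb2b. EWSR1-ERG replicate 1 was the lowest of its group for 9 of the 11 genes, the others being pvalb5 and pvalb9.

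Ratios to pvalb1 show how closely each neuronal gene followed that muscle gene across pools, and these too were chosen after the values were seen. The log2 ratio of pvalb7 over pvalb1 was -6.52, -6.54 and -6.59 in the wild-type pools and -7.67, -7.58 and -7.71 in the EWSR1-ERG pools. The SD was 0.0369 in wild type and 0.0624 in EWSR1-ERG, and the means differed by -1.10 with no overlap (exact permutation p = 0.1, n = 3 per group). Corresponding SDs over pvalb1 in wild-type pools were 0.416 for pvalb6, 0.361 for calb2a and 0.424 for calb2b. The log2 ratio to pvalb1 was lower without overlap for calb2a (mean difference -0.96) and calb2b (-1.31), each with an exact permutation p of 0.1, and with overlap for pvalb6 (mean difference -0.71, exact permutation p = 0.2, n = 3 per group).

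Next, the neuronal genes were set against genes of most neurons. The median log2 fold change of 31 tested genes on a pan-neuronal list was -0.47. Of these genes, 16 fell (51.6%, against 9.87% of all tested genes) and none rose. Those with the smallest p were the intermediate filament gene inaa (-2.29, adjusted p = 4.04e-06), the synaptophysin gene sypb (-1.19, adjusted p = 6.01e-06) and rab3aa of synaptic vesicles (-1.01, adjusted p = 9.02e-05). Without wild-type replicate 1 the list held 6 lower genes and without wild-type replicate 2 it held 7. Relative to the geometric mean of this list within each library, calb2b was lower by 0.93 on the log2 scale in EWSR1-ERG pools, pvalb7 by 0.72, calb2a by 0.58 and pvalb6 by 0.33. In each of the 4 the groups did not overlap (exact permutation p = 0.1, n = 3 per group) relative to the mean of the list. How often other tested genes lie apart by such a ratio was not tested, so this count has no baseline. Without EWSR1-ERG replicate 1 the difference for calb2a was -0.35, and without wild-type replicate 3 that for pvalb7 was -0.47. Relative to the list's median the differences were -0.71 for calb2b and -0.50 for pvalb7, again with no overlap (exact permutation p = 0.1, n = 3 per group). By that measure the groups overlapped for calb2a (-0.36, exact permutation p = 0.2) and pvalb6 (-0.12, exact permutation p = 0.4, n = 3 per group). Their place below the list thus depends on how the list is averaged. The log2 ratio of pvalb7 to the mean of the list had an SD of 0.447 in wild type and 0.0609 in EWSR1-ERG. In wild-type replicates 1, 2 and 3 this ratio was -0.07, 0.14 and 0.79, so replicate 3 made most of the wild-type spread. The ratio of pvalb7 to pvalb1, a pair chosen after the values were seen, had SDs of 0.0369 and 0.0624. Across wild-type pools pvalb7 followed this muscle gene more closely than the list, and across EWSR1-ERG pools about as closely. The word neuronal for pvalb7 is a label that was not tested, and SDs over 3 pools cannot decide in which tissue its RNA lay.

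The muscle genes were set against 38 other fast muscle genes in the same way. The mean difference in log2 ratio was -0.01 for pvalb1, -0.03 for pvalb2, -0.22 for pvalb3 and -0.39 for pvalb4, with exact permutation p of 1, 0.8, 0.3 and 0.1 (n = 3 per group). Of these 4, pvalb4 was the gene whose groups did not overlap. Without wild-type replicate 3 the differences were 0.13 for pvalb1, 0.09 for pvalb2, -0.07 for pvalb3 and -0.23 for pvalb4, so the first 2 changed sign. Without wild-type replicate 1 the difference was -0.10 for pvalb1, -0.13 for pvalb2 and -0.36 for pvalb3. Relative to the list's median pvalb3 did not overlap either (-0.31, exact permutation p = 0.1, n = 3 per group). The median of the 42 genes on the fast muscle list, parvalbumins included, was -0.22. Of them, 9 fell (21.4%) and 3 rose, while 9.87% of all tested genes were lower and 7.46% higher. The fallen genes with the smallest p were the phosphoglycerate mutase gene pgam2 (-0.93, adjusted p = 9.92e-05) and the troponin I genes tnni2a.1 (-1.18, adjusted p = 0.000153) and tnni2b.1 (-0.72, adjusted p = 0.00195). The higher genes were the myosin heavy chain genes myhz1.2 (0.67) and myhz1.1 (0.50) and the creatine kinase gene ckma (0.47), named after their values were seen. Without wild-type replicate 2 this list held 4 lower and 0 higher genes, and without EWSR1-ERG replicate 1 it held 6 higher ones. Without EWSR1-ERG replicate 2 or EWSR1-ERG replicate 3 it held 1 higher gene. Summed over the list, fast muscle genes took 102440 to 116836 CPM in wild-type and 87963 to 119319 CPM in EWSR1-ERG pools, which overlap.

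**Figure D4:**
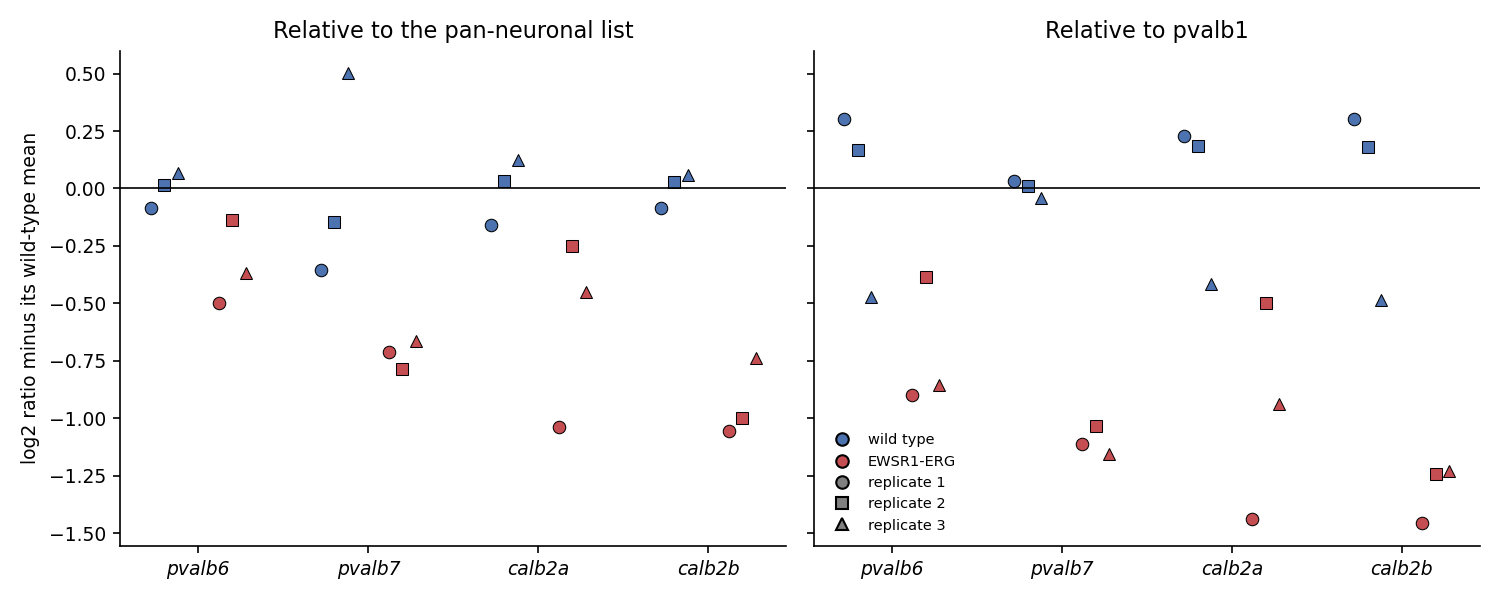
Log2 ratio of each neuronal gene to the mean of the pan-neuronal list (left) or to pvalb1 (right) within each library, minus the mean of the wild-type pools; colours mark the group and symbols the replicate. Relative to the mean of the pan-neuronal list all 4 genes lie lower in EWSR1-ERG pools without overlap (with the median of the list pvalb6 and calb2a overlap), and relative to pvalb1 the pools of pvalb7 lie closer together than those of the other 3.

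Genes on a list of other calcium-binding proteins, calmodulins among them, fell more often than they rose. Of 27 tested EF-hand buffers and sensors other than parvalbumins and calretinins, 11 fell, 1 rose and the other 15 did not pass. The share that fell was 40.7%, against 9.87% of all tested genes and 51.6% of the pan-neuronal list. The median was -0.51. The smallest p was that of cabp2a, whose relatives in mammals act at sensory cell synapses, which fell from 12.2 to 2.84 CPM (-2.06, adjusted p = 1.24e-05). The neurocalcin gene ncaldb fell by 1.49 (adjusted p = 4.11e-05). The rising member was HPCAL1, a hippocalcin-like sensor gene, from 1160 to 2208 CPM (0.93, adjusted p = 0.000156). The closest relative of calretinin in the list, the calbindin gene calb1, stood at 9.70 ± 1.73 and 6.92 ± 2.17 CPM (SD, n = 3 per group) and did not pass (-0.45, adjusted p = 0.241). This list held 5 to 7 lower genes without wild-type replicate 1, wild-type replicate 2, EWSR1-ERG replicate 1 or EWSR1-ERG replicate 2.

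Channels, pumps and exchangers that move calcium into and out of the cytosol of neurons were read as a further list. Of its 25 tested genes, 4 fell (16%, against 9.87% of all tested genes), 1 rose and 20 did not pass. The median was -0.15, and without wild-type replicate 2 or wild-type replicate 3 the count of higher genes was 0. The fallen genes with the smallest p were an exchanger gene listed as SLC24A2 (1 of 2) (-1.66, adjusted p = 4.04e-06), the plasma membrane calcium pump gene atp2b1b (-1.43, adjusted p = 7.87e-06) and the inositol trisphosphate receptor gene itpr3 (-0.74, adjusted p = 0.00109). In muscle, calcium release and storage genes went both ways, with a median of 0.03. Of 25 tested, 3 were lower (12%) and 6 higher, while 9.87% of all tested genes were lower and 7.46% higher. The higher gene of the neuronal calcium list was 1 of these 6. The calsequestrin gene casq1a (-0.80, adjusted p = 0.00262) and the calcium-binding protein gene HRC (-0.59, adjusted p = 0.00289) fell, while the calcium channel gamma subunit gene cacng1 rose (0.52, adjusted p = 0.00638). Without wild-type replicate 2, 1 gene of this list was higher and cacng1 did not pass, and without wild-type replicate 3 or EWSR1-ERG replicate 2 it was 3. Without EWSR1-ERG replicate 3, 5 of its genes were lower.

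Markers of the cell types known to hold these proteins were read beside them. Of 19 tested Purkinje cell genes, 3 fell and none rose, which is 15.8% lower against 9.87% of all tested genes, and the median was -0.36. The 3 were gad1b of GABA synthesis (-1.01, adjusted p = 0.00966) and the calmodulin regulator genes pcp4a (-0.80, adjusted p = 0.0115) and pcp4b (-0.78, adjusted p = 0.0387), and none of them passed without wild-type replicate 1. The call of pcp4b ended as well without wild-type replicate 2, EWSR1-ERG replicate 1 or EWSR1-ERG replicate 3, and with DESeq2, library totals as the scaling or the replicate number as a block. Other members that did not pass, chosen with their values in view, were the carbonic anhydrase gene ca8 (-0.39, adjusted p = 0.244) and the aldolase gene aldoca (-0.44, adjusted p = 0.0810). Also read in view of their values, foxp4 (0.18), skor1b (0.23), ptf1a (0.31) and SKOR2 (0.02) lay above 0 and did not pass. The remaining tested members of the list lay below 0. Of 12 granule cell genes, 3 fell (25%). They were the GABA receptor gene gabra6a (-2.57, adjusted p = 1.99e-06), neurod (-0.47, adjusted p = 0.00887) and the glutamate transporter gene slc17a7 (-1.07, adjusted p = 0.0345). The call of slc17a7 ended with DESeq2, with the replicate number as a block and without any 1 of 5 libraries, all but wild-type replicate 3, and without that pool the list held 5 lower genes.

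The median of 23 genes of ganglion, amacrine, bipolar and horizontal cells of the retina was -0.33. Among them, 6 fell (26.1%, against 9.87% of all tested genes) and none rose. They were led by the glutamate receptor gene grm6b of bipolar cells (-1.23, adjusted p = 0.00414) and the synuclein genes sncga (-0.82, adjusted p = 0.00618) and sncgb (-0.80, adjusted p = 0.0135). Without wild-type replicate 1 or wild-type replicate 2, 2 genes of this list were lower and sncgb did not pass. Of 26 photoreceptor genes, 25 fell (96.2%), with a median of -2.50. The exception was the opsin gene listed as opn1mw2 (ENSDARG00000094617; 0.26, adjusted p = 0.358). The name table gives the symbol opn1mw2 to another gene, ENSDARG00000044280, which is listed here as opn1mw1 and fell. Summed over that list, photoreceptor genes took 8346 to 8901 CPM in wild-type and 1263 to 1453 CPM in EWSR1-ERG pools, and no matched gene was at 0 in every library. The smallest p were those of the opsin genes opn1sw1 (-3.14, adjusted p = 2.43e-09) and opn1mw1 (-2.73, adjusted p = 2.43e-09) and of prph2b (-2.84, adjusted p = 2.43e-09). The part of retinal changes in the falls of calb2a and calb2b was not tested.

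Of 23 inhibitory neuron genes, 7 fell (30.4%, against 9.87% of all tested genes), 1 rose and 15 did not pass. The median was -0.57. By p they were led by a gene listed as BX571880.1, which the name table pairs with the somatostatin gene sst1.2 and which rose (0.86, adjusted p = 0.00653), by gad1b, and by the GABA transporter gene slc6a1b, which fell (-0.78, adjusted p = 0.0137). Without wild-type replicate 1 the list held 1 lower gene and neither slc6a1b nor gad1b passed, and it held 4 without wild-type replicate 2, EWSR1-ERG replicate 2 or EWSR1-ERG replicate 3. Hair cell genes were read beside pvalb8 and pvalb9, with a median of -0.21. Of 15 tested, 2 were lower (13.3%, against 9.87% of all tested genes) and 1 was higher. These were the S100 calcium-binding gene s100t (-1.46, adjusted p = 0.000357), otof, which encodes otoferlin of the hair cell synapse (-0.62, adjusted p = 0.0414), and a gene listed as cdh23 (ENSDARG00000007561; 0.90, adjusted p = 0.00101). The files list a second gene as cdh23 (ENSDARG00000094454), which did not pass (-0.22, adjusted p = 0.671). The call of otof ended without any 1 of 5 libraries, all but EWSR1-ERG replicate 3, and with DESeq2 and limma-voom. Summed over the list, hair cell genes reached 198 to 267 CPM in the wild-type pools. The sums of the EWSR1-ERG pools were 128 to 171 CPM. The gene s100t weighed heavily in these sums, with a wild-type mean of 103 CPM and an EWSR1-ERG mean of 37.1 CPM. Of the 15 tested genes, 12 did not pass. Sums without s100t were not taken, so these sums do not show a fall across the list. Slow muscle genes held 5 lower (38.5%) and 1 higher of 13, with a median of -0.27. By p they were led by the myosin-binding protein gene mybpc1 (-2.06, adjusted p = 5.91e-07), the troponin T gene tnnt1 (-2.36, adjusted p = 1.32e-06) and the tropomyosin gene tpm2 (-0.69, adjusted p = 0.00229). Without wild-type replicate 2 the slow muscle list held 3 lower and 0 higher genes.

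**Figure D5:**
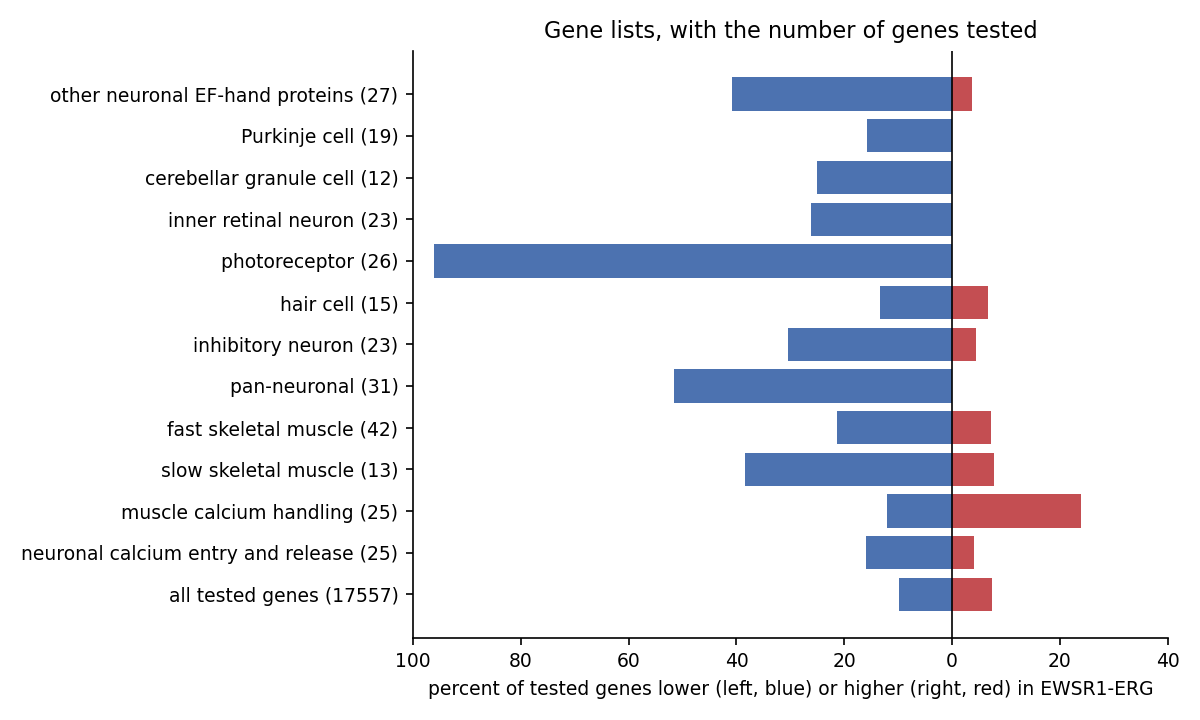
Percent of the tested genes of each list other than the parvalbumin family that passed at an adjusted p under 0.05 as lower (left of 0) or higher (right of 0) in EWSR1-ERG pools, with the number tested in brackets and all 17557 tested genes at the bottom. Photoreceptor genes (25 of 26 lower), pan-neuronal genes (16 of 31) and other neuronal EF-hand genes (11 of 27) have the longest bars to the left among the lists drawn. Of all tested genes, 9.87% were lower and 7.46% higher.

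The genes most like each neuronal gene across the 6 libraries were found by the root mean square difference of log2 CPM, each gene centred on its own mean. For pvalb6 they were the GABA receptor gene gabrb2 (0.0377), SV2B (2 of 3) of synaptic vesicles (0.0447) and the chloride channel gene ANO2 (1 of 2) (0.0652). For pvalb7 they were the retinol dehydrogenase gene rdh8a (0.0531), smpx, a gene of striated muscle (0.0739), and the alpha-actinin gene actn2 (0.0804). For calb2a they were an unnamed gene (ENSDARG00000075706, 0.0390), si:dkey-208k22.3 (0.0607) and DLGAP2 (1 of 3), a gene of the postsynaptic density (0.0627). For calb2b they were the chromatin protein gene hmga1b (0.0908), the retinol dehydrogenase gene rdh8b (0.0920) and an unnamed gene (ENSDARG00000004187, 0.107). The measure spans both groups, so it includes the difference between them.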

How the data were processed

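RNA was measured by sequencing in 6 pools, 3 per genotype, grouped by the genotype label. Per the submitters' processing notes, Zv9 was the genome build, and DESeq, SAMtools and Bowtie2 were used, without roles or versions. The deposited values are whole read counts per Ensembl gene; the unit is treated here like expected counts because the last line of each deposited file holds a size factor, which was not applied. No value needed rounding. Each file's 2 lines with no gene were dropped; they hold no reads.

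Genes were kept by filterByExpr of edgeR (version 4.0.16, R 4.3.3) set to at least 10 counts and a total of at least 15. The genotypes were compared with the robust quasi-likelihood F test over all 17557 genes, with Benjamini-Hochberg adjustment at 0.05. The SE is the log2 fold change divided by the square root of F, and 95% intervals use it with the test's degrees of freedom. Ratios were taken on log2 CPM (prior count 2) and compared by two-sided exact permutation tests over pools. DESeq2 1.42.0 and limma 3.58.1 (voom) were alternatives. The fit was also run on simulated counts, but the outcome is not given here and lends the calls no weight.

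Members and gene lists were chosen with earlier results of these data known. The 13 lists held 334 entries, of which 318 were matched by symbol, name table or RefSeq synonym. By rule, the named genes included the members, the remaining parvalbumins and the 3 called genes of smallest p in each list. The rule also took the 3 genes most like each neuronal member. Genes added after their values were seen were calb1, ca8, aldoca, foxp4, skor1b, ptf1a, SKOR2, opn1mw2, myhz1.2, myhz1.1, ckma and a second cdh23. No protein or promoter sequence was used here.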

Additional observations from a re-analysis of the deposited data

How the results depend on the processing

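The calls of calb2b, pvalb7 and pvalb6 held under all 16 alternatives, with log2 fold changes from -1.65 to -1.30, -1.38 to -1.15 and -1.05 to -0.71. So did those of pvalb5, pvalb8 and pvalb9, and pvalb1, pvalb2 and pvalb3 passed under none of them. The call of calb2a held under 12 of the 16 (log2 fold change -1.29 to -0.79, adjusted p 2.93e-05 to 0.138), ending with no filter on low counts (-1.06). The call of pvalb4 held under 11 of the 16 (-0.72 to -0.38, adjusted p 0.00647 to 0.140). Leaving out 1 library gave 646 to 1334 higher and 981 to 1668 lower genes over all tested genes. The lowest counts came without wild-type replicate 2 (646 and 981) and wild-type replicate 1 (718 and 1135), against 1309 and 1732 with all libraries. The cause was not tested. Leaving out 1 library moved calb2a between -1.29 and -0.79 and pvalb4 between -0.72 and -0.38. No called log2 fold change changed direction under these alternatives. The near-zero difference in ratio to the fast muscle list changed sign for pvalb1 (-0.10 to 0.13) and pvalb2 (-0.13 to 0.09) when 1 library was left out, as did that of pvalb8 over pvalb9 (-0.38 to 0.02). With the replicate number as a block, 1066 genes were higher and 1482 lower, and no call of the 8 genes changed. Deviations of same-numbered pools had correlations of -0.123, 0.0881 and -0.0213, within the -0.197 to 0.174 of differently numbered pools. These few correlations cannot decide whether the numbers pair the pools, and the labels do not say. The median log2 fold change of all genes stayed between -0.00394 and 0.0192 under every setting.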

Other observations

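The genes most like a neuronal member were read for their own log2 fold change. All of them fell, and the measure of likeness includes the difference between the groups. Beside pvalb6 stood gabrb2 (-0.89, adjusted p = 0.00657), SV2B (2 of 3) (-0.94, adjusted p = 0.0196) and ANO2 (1 of 2) (-0.86, adjusted p = 0.0235). Beside calb2a stood ENSDARG00000075706 (-1.13, adjusted p = 0.00573), si:dkey-208k22.3 (-1.11, adjusted p = 0.0316) and DLGAP2 (1 of 3) (-1.04, adjusted p = 0.0187). The retinol dehydrogenase genes rdh8a (45.7 to 18.6 CPM, log2 fold change -1.27, adjusted p = 5.99e-05) and rdh8b (14.7 to 5.46 CPM, -1.41, adjusted p = 0.000266), whose relatives act in the visual cycle, stood beside pvalb7 and calb2b. The muscle genes smpx (41.4 to 16.1 CPM, -1.34, adjusted p = 3.27e-05) and actn2 (13.6 to 5.71 CPM, -1.21, adjusted p = 0.00103) stood beside pvalb7. Beside calb2b also stood hmga1b (-1.33, adjusted p = 2.71e-05) and ENSDARG00000004187 (-1.43, adjusted p = 9.00e-05). The calls of SV2B (2 of 3), ANO2 (1 of 2), si:dkey-208k22.3 and DLGAP2 (1 of 3) ended without wild-type replicate 1 and without wild-type replicate 2. Those of SV2B (2 of 3) and ANO2 (1 of 2) ended without EWSR1-ERG replicate 3, and that of si:dkey-208k22.3 without EWSR1-ERG replicate 1.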
